A study of Mus musculus with 14 samples.

Results

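The 10 genes described here belong to fibroblast growth factor (FGF) signalling: the receptors Fgfr1, Fgfr2 and Fgfr3, the ligands Fgf2 and Fgf7, the feedback inhibitors Spry1, Spry2, Spry4 and Dusp6, and the transcription factor Etv5. They were chosen by name, for their roles in the pathway, out of 39179 genes in the differentiation table and 35886 genes in the sorted libraries. All 10 were present in both. The choice was made with earlier results of these data known, so counts of members set beside all genes are descriptions. The cells were Ocy454, a mouse osteocyte-like line immortalized with a heat-labile large T antigen, which is grown at 33 °C and matured by a shift to 37 °C. RNA was sequenced from unsorted cultures after 1, 7, 10 and 14 days at 37 °C, with 2 biologic replicates a day (8 libraries). It was also sequenced from live cells sorted after 17 days at 37 °C (the day in the sample labels, from which the study's text differs by 1 day in places) into the 10% with the highest and the 10% with the lowest surface CD61, with 3 libraries each (6 libraries). The study states selection of polyadenylated RNA for these 6 libraries. Both fractions were taken from 3 independent groups of cells, so a CD61 low and a CD61 high library can share a culture, but which libraries do so is not given in the sources used here. CD61, the integrin beta-3 subunit encoded by Itgb3, was the study's surface marker of osteocyte maturity. No group carried a genetic change or drug beyond the line's own T antigen, and all libraries come from this 1 line, so p-values describe the spread between its cultures or sorts and not between animals.

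FGF ligands bind receptor tyrosine kinases together with heparan sulfate chains and switch on the RAS-ERK kinase cascade. The cascade induces its own brakes: Sprouty proteins (Spry genes) act on the route to RAS and ERK, DUSP6 removes the activating phosphates from ERK, and ETV5 is a transcription factor whose gene is a common readout of FGF-ERK activity. In bone, FGF receptors act in osteoblasts and chondrocytes, FGFR3 is best known as a brake on the growth plate, and mature osteocytes are a source of the endocrine ligand FGF23.

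The receptors differ in which ligand they bind through a choice between alternative exons, IIIb and IIIc, that encode part of the third immunoglobulin-like domain. FGF7 signals through the IIIb form of FGFR2, which epithelia usually make, while mesenchymal cells usually make IIIc forms. On the GRCm39 build, with the GENCODE M39 annotation, exon IIIb of Fgfr2 lies on the minus strand of chromosome 7 at chr7:129801488-129801635 (148 bases), and exon IIIb of Fgfr3 on the plus strand of chromosome 5 at chr5:33888625-33888775 (151 bases). Both are coding exons, and they are shown because the choice of exon sets which ligands a receptor binds. Capitals mark bases that Fgfr2 and Fgfr3 share after alignment of these exons, written 5′ to 3′ on the gene's strand.
Fgfr2 exon IIIb: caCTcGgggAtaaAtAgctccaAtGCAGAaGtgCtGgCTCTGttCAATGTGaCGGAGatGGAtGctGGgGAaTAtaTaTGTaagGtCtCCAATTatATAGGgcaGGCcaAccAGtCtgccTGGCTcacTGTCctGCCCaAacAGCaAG
Fgfr3 exon IIIb: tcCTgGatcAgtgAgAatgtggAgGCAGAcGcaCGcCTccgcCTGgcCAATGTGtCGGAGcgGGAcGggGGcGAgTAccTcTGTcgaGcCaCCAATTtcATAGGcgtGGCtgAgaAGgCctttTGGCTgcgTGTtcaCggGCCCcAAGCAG
The IIIb exons of the 2 receptors shared 85 of 151 bases (56.3%).

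Values for the time course are read counts scaled to a common library total (CPM), and values for the sort are CPM after TMM normalization, which scales libraries to each other. A gene was called when its Benjamini-Hochberg adjusted p was below 0.01 and its Log2FC was above 1 or below -1. The words rose and fell are used where the adjusted p was below 0.01, whatever the size. The libraries held 27518605 to 34311238 reads on genes in the time course and 18815602 to 19220064 estimated counts in the sort. Identity was checked on marker lists. Among osteocyte markers, Dmp1 averaged 0.959 CPM on day 1 and 54.9 CPM on day 14, Sost was at 0 in both day 1 libraries and averaged 17.7 CPM on day 14, and Mepe stayed at 0.411 CPM or less in every group's mean. Of the 11 osteoblast and osteocyte markers, 10 could be tested in the time course. From day 1 to day 14, 8 of them rose and 2 fell, against 32.6% and 36.0% of all genes. Itgb3, which encodes the protein sorted on, averaged 5.65 ± 0.408 CPM for CD61 low and 111 ± 16.4 CPM for CD61 high (SD, n = 3), so the sorted groups carried the labelled difference. As these are bulk libraries, more cells that express a gene and more RNA per cell cannot be told apart.

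Over differentiation, Fgfr3 and the Sprouty genes Spry1, Spry2 and Spry4 rose from day 1 to day 14, while Fgfr2 fell by less than the fold threshold for a call. Fgf7 and Dusp6 both fell to day 7 and rose to day 10, after which Fgf7 rose again and Dusp6 did not. From day 7 to day 10 all 9 of the genes that could be tested rose, receptors, ligand, inhibitors and Etv5 alike (8 in a fit without limma's trend). In that interval 29.8% of all genes rose and 18.9% fell, shares that depend on the scaling of the libraries. Fgf2, at under 1 CPM in every library of the time course, was not tested there. The 4 comparisons of days share libraries and are not independent of each other.

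**Figure D1:**
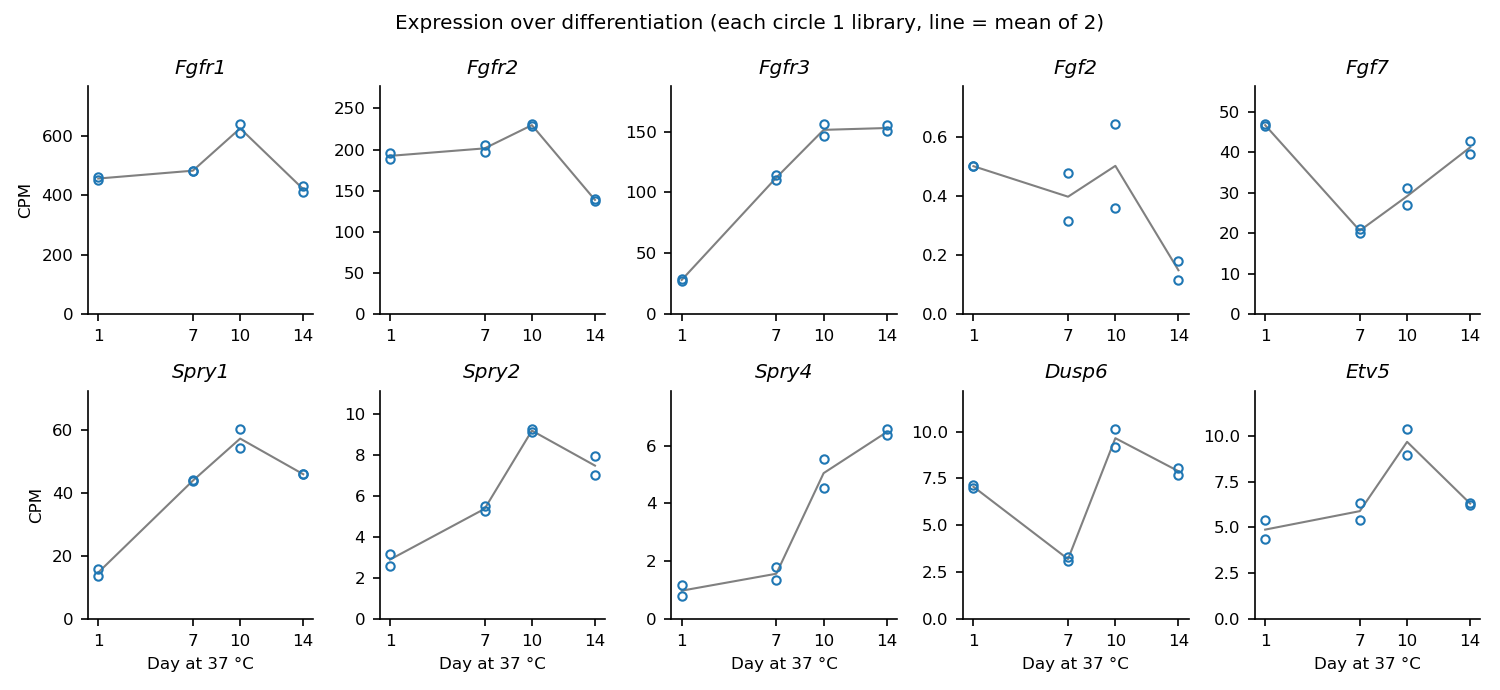
CPM of each of the 10 genes (vertical axes from 0, each gene on its own scale) against days at 37 °C; circles are single libraries and the line joins the means of 2. Fgfr3 climbs from 28.2 to 153 CPM, Fgf7 and Dusp6 dip at day 7, and Fgfr1, Fgfr2, Spry1, Spry2, Dusp6 and Etv5 are highest at day 10.

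Fgfr3 changed more than any other member between day 1 and day 14 on the log2(CPM + 1) scale. Its replicates read 28.8 and 27.6 CPM on day 1, 114 and 110 CPM on day 7, 147 and 156 CPM on day 10, and 151 and 155 CPM on day 14. Days 1, 7 and 10 did not overlap, whereas days 10 and 14 did. Most of the increase came by day 7 (Log2FC 1.96 ± 0.04 SE, limma adjusted p = 3.79e-23), and a further rise followed from day 7 to day 10 (0.43, adjusted p = 7.74e-09). Between days 10 and 14 the difference was 0.01 (adjusted p = 0.788), and from day 1 to day 14 it was 2.40 (adjusted p = 2.76e-25), with a mean CPM 5.43 times as high.

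Fgfr1 was the most abundant member throughout. Its replicates read 451 and 461 CPM on day 1, 483 and 482 CPM on day 7, 610 and 639 CPM on day 10, and 429 and 411 CPM on day 14. The day 10 pair stood above every other library. Fgfr1 rose from day 7 to day 10 (Log2FC 0.37 ± 0.04 SE, limma adjusted p = 3.15e-09) and fell from day 10 to day 14 (-0.57, adjusted p = 7.27e-13). Across the whole course it ended slightly lower (-0.12, adjusted p = 0.0056), a difference whose adjusted p was 0.0632 when edgeR was run on the recovered reads.

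Fgfr2, the receptor whose IIIb form binds FGF7, had a course shaped like that of Fgfr1. The replicates gave 189 and 196 CPM on day 1, 206 and 197 CPM on day 7, 231 and 228 CPM on day 10, and 140 and 138 CPM on day 14. Day 10 was again the highest pair and day 14 the lowest, without overlap with any other day. The fall from day 10 to day 14 was -0.72 ± 0.04 SE on the log2 scale (limma adjusted p = 1.17e-14). Compared with day 1, day 14 was lower by Log2FC -0.47 (adjusted p = 2.10e-11).

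Over the time course the order of the receptors changed. Levels were compared between genes per kilobase of the exon length given in the deposited table. At day 1, Fgfr1 was at 56.3, Fgfr2 at 23.6 and Fgfr3 at 4.41 CPM per kilobase, with Fgf7 (14.4) and Spry1 (4.91) above Fgfr3. At day 14, Fgfr1 was at 51.9, Fgfr3 at 24.0 and Fgfr2 at 17.0 CPM per kilobase, and the replicates of the last pair did not overlap. Fgfr3 thus moved from place 5 to place 2 among the 10 genes, with place 3 on days 7 and 10.

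Other receptors and co-receptors were followed beside them. Fgfrl1, a receptor-like protein with no kinase domain, averaged 37.8, 44.5, 28.8 and 37.4 CPM in the order of the days. It fell from day 7 to day 10 (Log2FC -0.61 ± 0.06 SE, limma adjusted p = 3.54e-09), where the 3 receptors rose, and rose again to day 14 (0.37, adjusted p = 1.05e-05). The adhesion molecules Ncam1 and Cdh2 (N-cadherin), which can bind FGF receptors, were abundant. Ncam1 averaged 111, 156, 90.5 and 161 CPM, with a fall from day 7 to day 10 (-0.78, adjusted p = 2.06e-14). Cdh2 averaged 159.9, 387, 354 and 242 CPM, and its rise to day 7 was called (1.27, adjusted p = 1.05e-20). In CD61 high cells Ncam1 was higher by 0.54 ± 0.11 SE (edgeR adjusted p = 0.00216) and Cdh2 by 0.70 ± 0.10 SE (adjusted p = 0.000211), neither past the fold threshold. The other genes of this list were scarce. Fgfr4 had 5 reads in all 8 libraries together, and Klb, a co-receptor for endocrine FGFs, had 7. Kl (alpha-Klotho), the co-receptor for FGF23, and Fgf23 itself had 0 of 250823570 reads, which allows up to 0.0120 CPM (3 reads, a limit for counting error only). In the sorted libraries Kl had 0 and Fgf23 had 1 of 113549466 estimated counts.

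The ligand Fgf7, also known as keratinocyte growth factor, is made by mesenchymal cells. Its replicates read 46.4 and 47.0 CPM on day 1, 21.2 and 20.1 CPM on day 7, 31.3 and 27.1 CPM on day 10, and 39.5 and 42.9 CPM on day 14. No day overlapped with another, and day 7 was the low point. The fall to day 7 was called (Log2FC -1.14 ± 0.07 SE, limma adjusted p = 5.22e-14). Rises of 0.48 (adjusted p = 1.26e-06) and 0.49 (adjusted p = 7.01e-07) followed, and day 14 differed from day 1 by -0.18 (adjusted p = 0.0199), which missed the threshold.

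Fgf2, a ligand for the IIIc forms that is held in the matrix by heparan sulfate, was close to the limit of detection. Its libraries held 17 and 16 reads on day 1, 16 and 9 on day 7, 11 and 20 on day 10, and 4 and 5 on day 14. The day 14 libraries were the lowest, at 0.117 and 0.182 CPM against 0.502 in both day 1 libraries, with no test run at this level. Fgf2 also overlaps Nudt6 by 5711 bases on the opposite strand, and Nudt6 reached 2.42 CPM. Whether the counting used strand is not given in the sources used here, so reads in the overlap cannot be told apart.

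The Sprouty genes Spry1, Spry2 and Spry4, brakes on the route from receptor to ERK, were all called higher on day 14 than on day 1. Spry1 had replicates of 15.8 and 13.8 CPM on day 1, 43.7 and 44.2 CPM on day 7, 60.4 and 54.2 CPM on day 10, and 46.0 and 46.0 CPM on day 14. Its increase lay mainly between days 1 and 7 (Log2FC 1.51 ± 0.06 SE, limma adjusted p = 5.18e-17), as for Fgfr3. Between days 10 and 14 it fell by 0.31 on the log2 scale (adjusted p = 0.000197), and at day 14 it was 3.11 times as high in mean CPM as at day 1 (Log2FC 1.58, adjusted p = 1.33e-17).

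Spry4 was called at a later step than Spry1. Its replicates were 1.18 and 0.784 CPM on day 1, 1.80 and 1.34 CPM on day 7, 5.55 and 4.54 CPM on day 10, and 6.35 and 6.58 CPM on day 14. The step from day 7 to day 10 was called (Log2FC 1.24 ± 0.14 SE, limma adjusted p = 2.75e-08), whereas that from day 1 to day 7 was not (0.38, adjusted p = 0.0194). That earlier value ranged from 0.23 (without day 1 replicate 2) to 0.52 (without day 1 replicate 1) with 1 library left out. It was 0.72 by edgeR on the recovered reads (adjusted p = 0.0198) and 0.64 with a pseudocount of 0.1 (adjusted p = 0.00905), again short of the fold threshold. Over the whole course the mean CPM became 6.58 times as high (Log2FC 1.92, adjusted p = 1.95e-12). The log2 value is smaller than that ratio because the added 1 CPM damps changes of low genes. Run on the recovered reads, edgeR gave 2.74.

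Spry2 rose at both early steps without a call at either. Its libraries read 3.19 and 2.60 CPM on day 1, 5.49 and 5.24 CPM on day 7, 9.26 and 9.09 CPM on day 10, and 7.93 and 7.01 CPM on day 14. The Log2FC was 0.71 ± 0.11 SE to day 7 (limma adjusted p = 3.86e-06) and 0.68 to day 10 (adjusted p = 1.14e-05). The difference between day 14 and day 1 was called at Log2FC 1.12 (adjusted p = 1.18e-09), and that between days 14 and 10 was -0.27 (adjusted p = 0.0404).

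Dusp6, which encodes the ERK phosphatase, was lowest on day 7. Its replicates read 6.97 and 7.15 CPM on day 1, 3.09 and 3.31 CPM on day 7, 10.1 and 9.15 CPM on day 10, and 8.07 and 7.70 CPM on day 14. The days did not overlap. Dusp6 fell to day 7 by Log2FC -0.94 ± 0.10 SE (limma adjusted p = 1.35e-08), just short of the fold threshold, and was past it at -1.10 by edgeR on the recovered reads. The rise to day 10 was called (1.34, adjusted p = 4.11e-11). At day 14 the level differed from day 1 by 0.14 (adjusted p = 0.223).

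Etv5 had a single peak. It read 4.37 and 5.39 CPM on day 1, 6.36 and 5.42 CPM on day 7, 8.96 and 10.4 CPM on day 10, and 6.35 and 6.25 CPM on day 14. The day 10 pair lay above all other libraries, with a rise from day 7 (Log2FC 0.63 ± 0.11 SE, limma adjusted p = 4.01e-05) and a fall to day 14 (-0.54, adjusted p = 0.000207). Etv4, a close relative of Etv5 and another common FGF readout, had means of 4.49, 6.87, 12.0 and 5.32 CPM in the order of the days, so its highest mean was also at day 10. Etv1, the third member of this family, had 0 reads.

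Counted over the members, 2 were called higher (Fgfr3 and Spry1) and 1 lower (Fgf7) of 9 tested from day 1 to day 7, where 4.49% of all 12725 genes were called higher and 4.62% lower. By the adjusted p alone, 3 rose and 2 fell, against 24.5% and 32.0% of all genes. With TMM scaling Fgfr1 also passed, making 4 members that rose, and over all genes 3584 rose and 3572 fell against 3115 and 4076. From day 7 to day 10, 2 were called higher (Spry4 and Dusp6) against 1.43% of all genes. Limma called 0 lower against 0.786% of all genes, with 0 at an unadjusted p below 0.05, and edgeR on the recovered reads also called 0. By the adjusted p alone, all 9 rose in this interval, where 29.8% of all genes rose and 18.9% fell, with a median Log2FC of 0.48 for the members and 0.07 for all genes. Without limma's trend 8 rose, as Fgfr2 missed the threshold. The shares of all genes depend on the scaling: with TMM scaling of the CPM values 2940 genes rose and 3159 fell, against 3798 and 2399 as deposited, while all 9 members still rose. From day 10 to day 14 limma called 0 members in either direction (2.09% of all genes were called higher and 0.872% lower). By the adjusted p alone, Fgf7 rose and Fgfr1, Fgfr2, Spry1 and Etv5 fell in that interval, against 22.9% and 30.0% of all genes, and at an unadjusted p below 0.05 there were 2 higher and 6 lower. EdgeR on the recovered reads called 0 here too. With TMM scaling the balance of all genes turned again, to 3508 that rose and 3114 that fell against 2909 and 3812, while the members stayed at 1 higher and 4 lower. Without the CPM filter, 1 member was higher and 2 were lower by the adjusted p alone. Between days 1 and 14, 4 were called higher (Fgfr3, Spry1, Spry2 and Spry4) and 0 lower, against 7.51% and 5.90% of all genes. By the adjusted p alone, limma found 4 higher and 2 lower (32.6% and 36.0% of all genes), with 3 lower at an unadjusted p below 0.05, and edgeR on the recovered reads called 0 lower. With TMM scaling 5 members were higher and 1 lower by the adjusted p alone, as Etv5 passed and Fgfr1 did not, and 4420 of all genes rose and 4280 fell against 4151 and 4575.

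**Figure D2:**
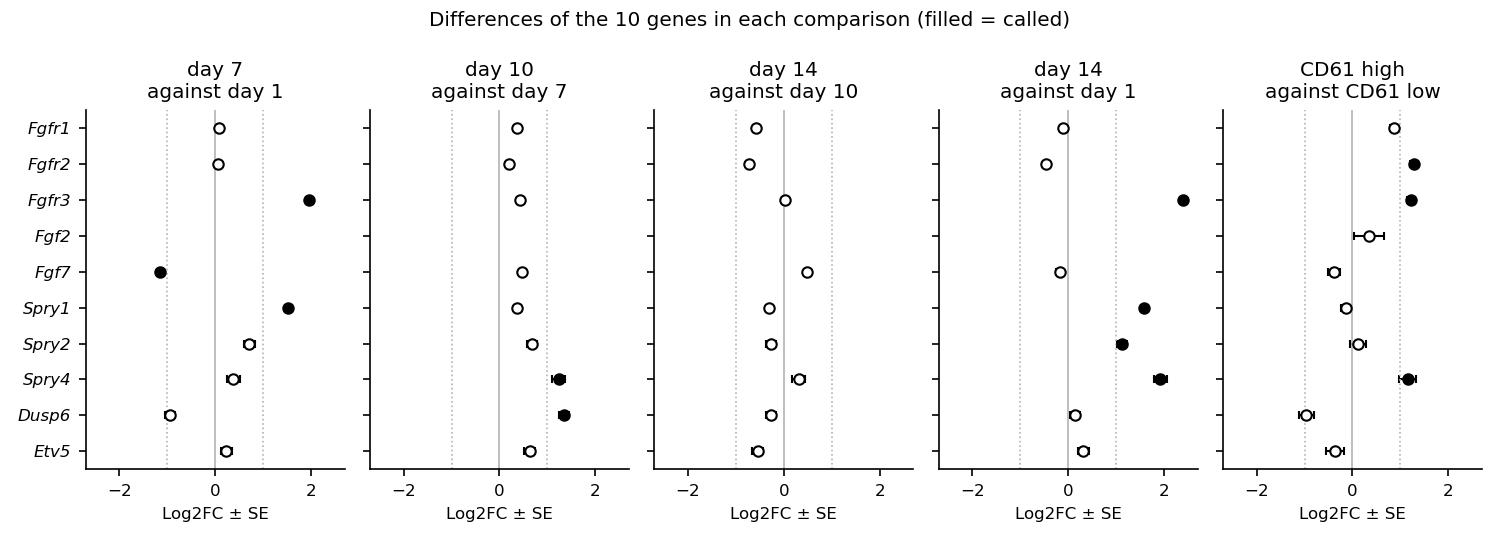
Log2FC with its SE (horizontal axis) of each gene in the 5 comparisons; filled points were called, dotted lines mark Log2FC of 1 and -1, and Fgf2 has no point in the time course because it was not tested there. In the second panel all 9 points lie to the right of 0; in the last, all 3 receptors and Spry4 lie to the right while Dusp6 lies just inside -1. By the adjusted p, 29.8% of all genes rose in the comparison of the second panel.

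The genes whose CPM ran most closely with Fgfr3 over the 8 libraries, out of 10312 compared, were Tbkbp1 (Pearson's r of log2(CPM + 1) 0.9986), Slc44a1 (0.9985) and Slc36a2 (0.9982). The points share libraries and days, so these values describe likeness of course only.

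Sorted cells gave the second view of the same genes. All 3 receptors were higher in CD61 high than in CD61 low cells, at 2.44 times the mean CPM for Fgfr2, 2.33 times for Fgfr3 and 1.82 times for Fgfr1, and Spry4 was at 2.23 times. Dusp6 went the other way and fell by nearly the fold threshold. Spry1, Spry2, Fgf2, Fgf7 and Etv5 did not pass the test. Of 10 members tested, 3 were called higher and 0 lower, where 4.84% of all 12077 genes were called higher and 4.37% lower. By the adjusted p alone, 4 rose and 1 fell (19.4% and 16.0% of all genes). With library size alone in place of TMM, 0 members were called higher and 1 lower, and over all genes 316 were called higher and 963 lower. DESeq2 also called 3 higher and 0 lower, and edgeR found 2 lower at an unadjusted p below 0.05.

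**Figure D3:**
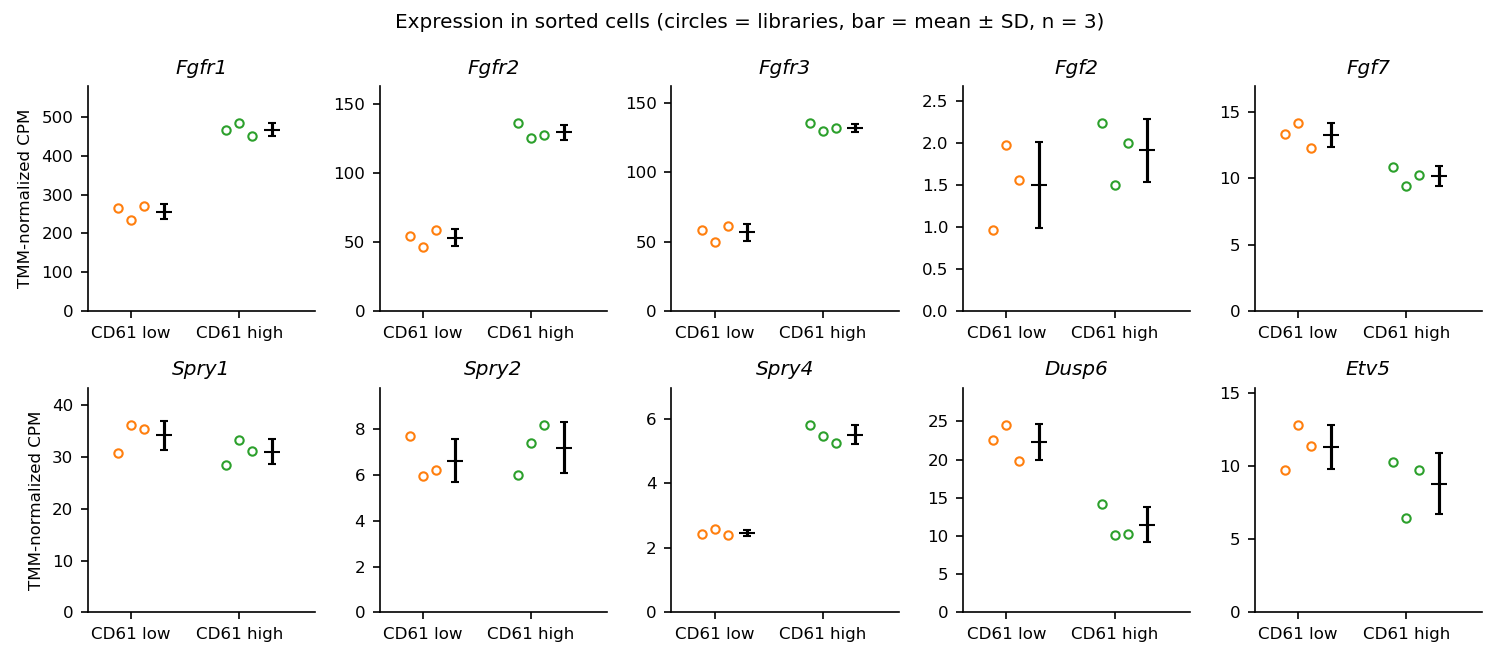
TMM-normalized CPM of the 10 genes (vertical axes from 0, each gene on its own scale) in CD61 low and CD61 high cells; circles are the 3 libraries of each group and the bar is their mean ± SD. The groups do not overlap for Fgfr1, Fgfr2, Fgfr3, Spry4, Dusp6 and Fgf7. The share of all genes without overlap was not counted. By the adjusted p, 19.4% of all genes rose and 16.0% fell in this comparison.

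In the CD61 low sort Fgfr3 read 58.6, 50.0 and 61.1 CPM, against 135, 129 and 132 CPM in the CD61 high sort. The groups were well apart (56.6 ± 5.82 and 132 ± 2.84 CPM, SD, n = 3), with a Log2FC of 1.22 ± 0.08 SE (edgeR adjusted p = 1.85e-06). The Fgfr2 values were 54.3, 46.4 and 58.4 CPM for CD61 low, against 136, 125 and 127 CPM for CD61 high. This too was without overlap, at a Log2FC of 1.28 ± 0.09 SE (edgeR adjusted p = 2.22e-06).

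For Fgfr1, the CD61 low libraries read 264, 234 and 270 CPM and those of CD61 high 467, 484 and 451 CPM. The Log2FC of 0.87 ± 0.08 SE (edgeR adjusted p = 8.85e-06) stayed below the fold threshold, so Fgfr1 rose but was not called. Per length, in TPM, which is scaled for transcript length and library total, the order of the receptors was the same in both groups. Fgfr1 was at 133 ± 10.1 TPM in CD61 low and 201 ± 7.10 TPM in CD61 high cells (SD, n = 3), Fgfr2 at 47.0 ± 4.18 and 89.2 ± 6.80 TPM, and Fgfr3 at 37.9 ± 3.22 and 73.5 ± 5.66 TPM. Each receptor's libraries lay apart from those of the next within both groups. Fgfr2 was thus above Fgfr3 in TPM in both sorted groups, whereas at day 14 Fgfr3 was above Fgfr2 in CPM per kilobase. The order of these 2 in the sort depends on the measure. In TMM-normalized CPM, Fgfr3 averaged 56.6 for CD61 low and 132 for CD61 high, and Fgfr2 53.0 and 129. The exon length in the deposited table is 6383 bases for Fgfr3 and 8158 for Fgfr2. Per kilobase of that length, Fgfr3 was therefore above Fgfr2 in both sorted groups, as at day 14. The 2 datasets also differ in day and in sorting.

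Spry4 was the 1 inhibitor that was called. Its CD61 low libraries read 2.44, 2.58 and 2.39 CPM against 5.81, 5.47 and 5.24 CPM for CD61 high, with a Log2FC of 1.15 ± 0.17 SE (edgeR adjusted p = 0.000331). Dusp6 read 22.6, 24.5 and 19.8 CPM for CD61 low, against 14.1, 10.1 and 10.2 CPM for CD61 high. That is a Log2FC of -0.96 ± 0.15 SE (edgeR adjusted p = 0.000379) with no overlap, so Dusp6 fell where Spry4 rose. Without CD61 high replicate 1, its highest library in that group, the Log2FC was -1.14 and past the fold threshold, and without CD61 low replicate 3, its lowest there, it was -1.06.

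Among the rest, Spry1 averaged 34.2 ± 2.88 CPM for CD61 low and 31.0 ± 2.45 CPM for CD61 high (SD, n = 3), and the groups overlapped (Log2FC -0.14, edgeR adjusted p = 0.251). Spry2 was at 6.62 ± 0.945 and 7.18 ± 1.11 CPM, also overlapping (0.12, adjusted p = 0.597). Both of these inhibitors had been called higher at day 14 than at day 1. Etv5 read 9.76, 12.8 and 11.4 CPM for CD61 low, against 10.3, 6.45 and 9.71 CPM for CD61 high, with a Log2FC of -0.36 ± 0.18 SE (adjusted p = 0.123). Without CD61 high replicate 2, its lowest library, it was -0.18, and with 1 library left out at a time it ranged from -0.49 to -0.18.

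Of the ligands, Fgf7 read 13.3, 14.1 and 12.3 CPM for CD61 low, against 10.9, 9.38 and 10.2 CPM for CD61 high. The groups did not overlap, but the Log2FC of -0.38 ± 0.12 SE missed the threshold (edgeR adjusted p = 0.0204). Salmon assigned 29.7% to 54.1% of each library's Fgf7 TPM to a transcript annotated without a coding sequence. Fgf2 passed the count filter here with 20 to 42 estimated counts per library, at 1.50 ± 0.510 CPM for CD61 low and 1.91 ± 0.375 CPM for CD61 high (Log2FC 0.35 ± 0.31 SE, adjusted p = 0.373). Leaving out 1 library at a time gave 0.10 (without CD61 low replicate 1) to 0.59 (without CD61 low replicate 2), and with library size alone it was 0.05. The Fgf2 difference was within the spread between libraries, of which depth is a part that was not separated.

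The scale of the sort depends on how the libraries were normalized. TMM factors were 0.895 to 0.909 for the CD61 high and 1.10 to 1.13 for the CD61 low libraries. With library size alone, the median Log2FC of all genes moved to -0.29, and calls over all genes went from 585 higher and 528 lower to 316 higher and 963 lower. On that scale Fgfr2 was at 0.98, Fgfr3 at 0.92, Spry4 at 0.85 and Fgfr1 at 0.57, all with an edgeR adjusted p below 0.01 but none past the fold threshold. Dusp6 was at -1.26 and called, Fgf7 (-0.69), Spry1 (-0.44) and Etv5 (-0.67) passed the adjusted p as lower, and Spry2 turned from 0.12 to -0.18. The receptors and Spry4 were higher and Dusp6 was lower in CD61 high cells under both scalings.

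Markers moved with the sort as well. Of 11 osteoblast and osteocyte markers, 9 of the 10 tested were called higher in CD61 high cells (4.84% of all genes), and 7 of 10 were called higher at day 14 than at day 1 (7.51% of all genes). By the adjusted p alone, 1 of the 10 was lower in CD61 high cells and 2 were lower at day 14 (16.0% and 36.0% of all genes). Their sum was 17690 to 21624 CPM for CD61 low and 50273 to 52985 CPM for CD61 high. In the time course it was 35639 to 35693 CPM on day 1 and lower, at 29741 to 34918 CPM, on day 14. Immediate early genes, which ERK and handling of cells can both induce, summed to between 1530 and 1784 CPM for CD61 low and between 2474 and 3058 CPM for CD61 high, with 4 of 10 called higher and 1 lower (4.84% and 4.37% of all genes). In the unsorted time course they summed to 193 to 204 CPM on day 1 and 552 to 573 CPM on day 14, with 7 of 10 called higher (7.51% of all genes). Chondrocyte markers summed to between 38.8 and 48.7 CPM for CD61 low and between 101 and 117 CPM for CD61 high, with 3 of 4 tested called higher (4.84% of all genes). The part of these differences in the members' values was not tested. Macrophage, endothelial and adipocyte markers summed to at most 15.8, 0.861 and 30.6 CPM in any library. All 3 of these sums were lower in CD61 high cells, without overlap. Macrophage markers were at 12.8 to 15.8 CPM for CD61 low and 8.24 to 8.86 CPM for CD61 high. Adipocyte markers were at 17.5 to 20.6 and 13.5 to 14.6 CPM, and endothelial markers at 0.282 to 0.861 and 0 to 0.173 CPM. Their part in the members' values was not tested either. Some of the marker sums moved between days 7 and 10, when the members rose. Adipocyte markers went from between 17.5 and 19.6 CPM to between 28.6 and 30.6 CPM, nearly all of it Cebpa, while Adipoq was at 0.0164 CPM or less in the means of both days and Plin1 at 0. Macrophage markers went from between 1.77 and 1.90 CPM to between 4.92 and 5.19 CPM, mostly Cd68, with Adgre1 and Tyrobp at 0 on both days. Osteoblast and osteocyte markers went from between 36073 and 36640 CPM to between 26670 and 28690 CPM. Immediate early genes went from between 306 and 316 CPM to between 360.01 and 399.97 CPM, and chondrocyte markers from between 78.1 and 80.5 CPM to between 69.6 and 70.6 CPM. The part of these shifts in the members' rise was not tested.

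The exon forms of the receptors were read from Salmon's TPM of annotated transcripts, summed over those holding exon IIIb or exon IIIc. Of the TPM of transcripts with either exon, most was of the IIIc form for all 3 receptors in both sorted groups. Most of the Fgfr2 TPM, however, was in transcripts with neither exon. For Fgfr2, transcripts with IIIb made up 12.6%, 10.7% and 14.0% of the IIIb and IIIc total in CD61 low and 13.3%, 11.8% and 14.6% in CD61 high libraries, with overlap. For Fgfr3 the shares were 10.1%, 11.7% and 12.8% in CD61 low and 15.8%, 8.18% and 14.5% in CD61 high libraries, also with overlap.

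For Fgfr1, the IIIb share was 13.5%, 22.0% and 19.5% in CD61 low and 23.0%, 32.0% and 24.5% in CD61 high libraries. The groups did not overlap, with the nearest libraries at 22.0% and 23.0%. An exact permutation test of 3 against 3 unpaired libraries cannot give a two-sided p below 0.1, so these shares are a description. They rest on Salmon's division of reads between whole transcripts, not on reads counted over the exons, and Salmon's own uncertainty was not assessed. Transcripts with either exon carried 88.1% to 91.0% of the Fgfr1 TPM but 30.5% to 41.0% of the Fgfr2 TPM. Retained-intron transcripts took 28.0% to 38.7% of the Fgfr2 TPM. For Fgfr3, transcripts with either exon carried 55.8% to 73.2% of the TPM and retained-intron transcripts 22.6% to 36.1%, and for Fgfr1 retained-intron transcripts took 8.22% to 11.7%. The level of none of the 3 receptors is thus all receptor-coding RNA. Of the 2 Fgfr1 transcripts with IIIb, 1 is annotated as a target of nonsense-mediated decay and carried 0.846% to 3.46% of the gene's TPM.

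**Figure D4:**
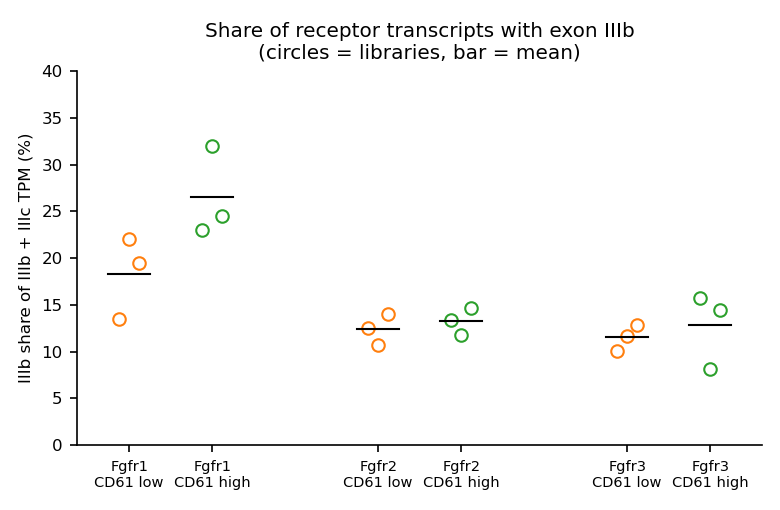
Share of exon IIIb (%, vertical axis from 0) in the summed TPM of transcripts with exon IIIb or IIIc, for Fgfr1, Fgfr2 and Fgfr3 in CD61 low and CD61 high libraries; circles are libraries and bars their means. All shares lie at or below 32.0%, and the groups overlap for Fgfr2 and Fgfr3 but not for Fgfr1.

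Around the members, 91 further genes of the pathway were followed, of which 65 could be tested in the time course and 62 in the sort. Between days 1 and 14, 8 were called higher and 7 lower, against 7.51% and 5.90% of all genes. Between CD61 low and CD61 high cells 6 were called higher and 6 lower, against 4.84% and 4.37% of all genes. Of 21 adaptors and kinases that carry the signal from the receptor to ERK, all were tested in each comparison, and edgeR and DESeq2 both called 0 in the sort, where edgeR found 7 higher and 3 lower at an unadjusted p below 0.05. Limma and edgeR on the recovered reads called 0 between days 1 and 14, where limma found 6 higher and 6 lower at an unadjusted p below 0.05. By the adjusted p alone, 5 of the 21 were higher and 5 lower there (32.6% and 36.0% of all genes). In the sort 5 were higher and 2 lower by the adjusted p (19.4% and 16.0% of all genes). Shares of all genes at an unadjusted p below 0.05 were not counted in any comparison. Over the shorter interval from day 1 to day 7, 1 of the 21 was called lower, which is near the 4.62% of all genes called lower there. This was Ksr1, a scaffold of the ERK cascade named after its values were seen, at 19.4 CPM on day 1 and 5.72 CPM on day 7 (Log2FC -1.60 ± 0.09 SE, limma adjusted p = 2.43e-14), and it was also lower in CD61 high cells (-0.89, edgeR adjusted p = 4.77e-05), short of the fold threshold.

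Between days 1 and 14 the largest difference among those with a mean of at least 5 CPM was in a heparan sulfate cofactor. Sdc3, which encodes the proteoglycan syndecan-3, averaged 205 CPM on day 1 and 1963 CPM on day 14 (Log2FC 3.26 ± 0.04 SE, limma adjusted p = 4.99e-30), and it was higher in CD61 high cells (1.46 ± 0.11 SE, edgeR adjusted p = 3.44e-06). Gpc1, the proteoglycan glypican-1, was higher in CD61 high cells by 1.56 ± 0.08 SE (adjusted p = 3.26e-07). Sulf2, which trims sulfate from heparan sulfate outside the cell, fell from 168 to 43.7 CPM between days 1 and 14 (Log2FC -1.92, limma adjusted p = 2.30e-20). Hs6st2, a sulfotransferase that adds such groups, was lower in CD61 high cells (Log2FC -1.59, edgeR adjusted p = 8.68e-06). Of the 22 cofactors, 2 were called higher and 4 lower of 18 tested from day 1 to day 14 (7.51% and 5.90% of all genes), and 2 higher and 2 lower of 17 in the sort (4.84% and 4.37%).

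ERK target genes outside the members were counted next, with 4 of 8 tested called higher between days 1 and 14 (7.51% of all genes) and 4 of 8 in the sort (4.84% of all genes). Egr1, Fos and Ier3 are also in the list of immediate early genes counted above. Limma called 0 lower in the first (1 at an unadjusted p below 0.05), edgeR 0 in the second (0 at an unadjusted p below 0.05), and edgeR on the recovered reads and DESeq2 also called 0 lower. Egr1, a zinc finger transcription factor, averaged 25.4 CPM on day 1 and 193 CPM on day 14 (Log2FC 2.88 ± 0.06 SE, limma adjusted p = 3.67e-24). Phlda1 rose from 11.4 to 55.1 CPM (Log2FC 2.17, adjusted p = 1.17e-20). Ier3 was the target with the largest call in the sort, at 65.4 ± 6.74 CPM for CD61 low and 159.7 ± 2.87 CPM for CD61 high (Log2FC 1.29, edgeR adjusted p = 1.21e-06). Etv5, Etv4 and Dusp6, which are used as targets of the same cascade, were not among those called higher.

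In a list of 13 further feedback genes, 12 were tested in each comparison, and 1 was called higher and 2 lower between days 1 and 14 (7.51% and 5.90% of all genes) and 4 lower in the sort (4.37% of all genes). Those lower in the sort were Flrt1, Flrt2, Flrt3 and Dusp4. DUSP4 is a nuclear phosphatase of ERK, but the FLRT proteins are membrane proteins that bind FGF receptors and guide cells, and are not phosphatases or Sprouty-like inhibitors. Flrt2 fell from 115 to 15.2 CPM between days 1 and 14 (Log2FC -2.83 ± 0.07 SE, limma adjusted p = 4.10e-22) and Flrt3 from 25.6 to 2.83 CPM (-2.79, adjusted p = 1.19e-17). In the sort, Flrt3 averaged 13.8 ± 0.275 CPM for CD61 low and 2.26 ± 0.228 CPM for CD61 high (Log2FC -2.61, edgeR adjusted p = 5.65e-07), and Flrt2 at 36.6 ± 5.37 and 11.2 ± 0.898 CPM (-1.71, adjusted p = 2.73e-06).

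**Figure D5:**
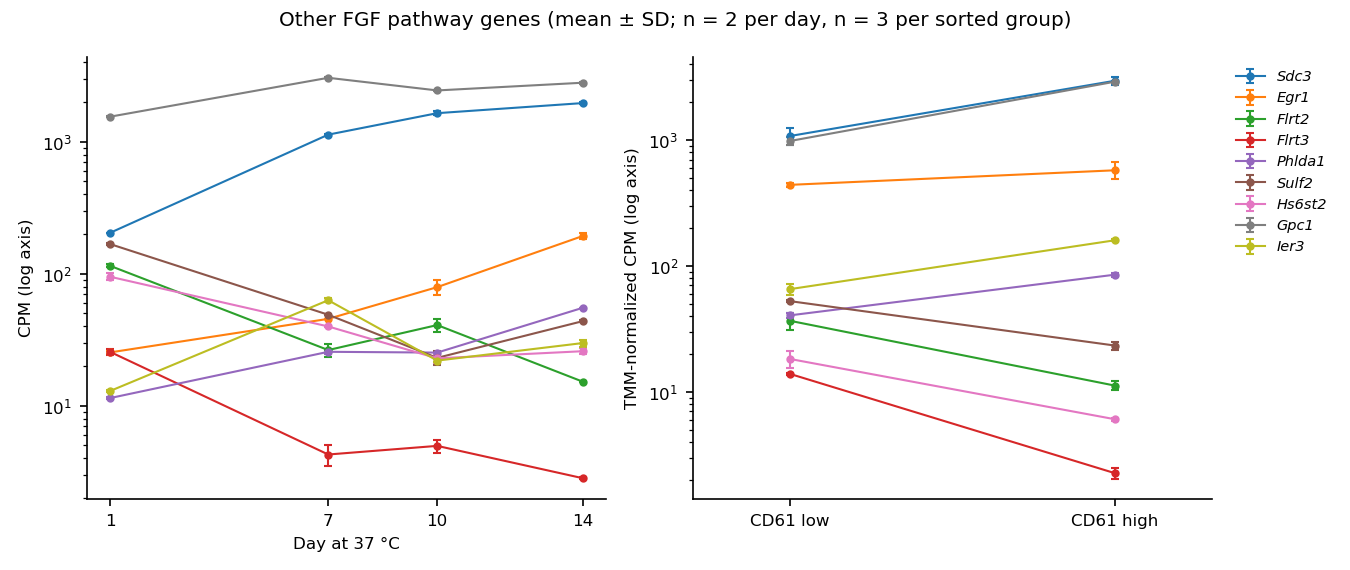
Means ± SD of 9 other FGF pathway genes on log axes, in CPM against days at 37 °C (left, n = 2 per day) and in TMM-normalized CPM in sorted cells (right, n = 3 per group). Sdc3 and Gpc1 are the most abundant in both panels, and Flrt2 and Flrt3 decline from day 1 to day 14 and from CD61 low to CD61 high cells.

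Other ligands were few: of 20 further FGF genes, 3 could be tested in the time course and 1 in the sort. Of these, 1 was called higher and 1 lower between days 1 and 14, against 7.51% and 5.90% of all genes. Both were named after their values were seen. Fgf11, the gene called higher, averaged 3.05 CPM on day 1 and 11.2 CPM on day 14 (Log2FC 1.60 ± 0.12 SE, limma adjusted p = 3.09e-12). FGF11 is an intracellular family member that does not act through the receptors. Fgf18, a ligand known from bone and cartilage, was the gene called lower, with means of 8.84, 1.96, 0.977 and 1.32 CPM in the order of the days (Log2FC from day 1 to day 14 -2.08 ± 0.13 SE, limma adjusted p = 1.27e-13).

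Promoters were searched for an ETS-type motif, CCGGAAG, and an AP-1-type motif, TGANTCA, on both strands, since factors of these families act at the end of the ERK cascade. RefSeq sequences (GRCm38.p6, 300 bases around a gene's start) were matched for 8 members with 10 start sites. The motifs were found in 0 of the 10 windows, against 8.86% and 7.81% of 32851 promoters. That says only that these letters are not in these windows.

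All members are on GRCm39: Fgfr1 at chr8:26003670-26066824, Fgfr2 at chr7:129763471-132725079, Fgfr3 at chr5:33879018-33894412, Fgf2 at chr3:37402473-37464257 and Fgf7 at chr2:125876578-125934218. Spry1 is at chr3:37693897-37698755, Spry2 at chr14:106128766-106136446, Spry4 at chr18:38719300-38736025, Dusp6 at chr10:99086564-99103361 and Etv5 at chr16:22200052-22259662. The span of Fgfr2 is stretched by 1 annotated coding transcript, to which Salmon gave 26.6% of the gene's TPM on average, and another coding transcript, with 24.6%, spans chr7:129763471-129868272.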

How the data were processed

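Differentiation libraries were aligned by the authors with STAR and assigned to genes with HTSeq-count, and the deposited values are CPM without scaling between libraries. For the sorted libraries the authors ran Salmon on GRCm39 transcripts (release 104), and the deposited files give estimated counts, which need not be whole, and TPM per transcript. Versions are not given in the sources used here. The reads per library were recovered from the CPM steps, since 100% of values came out as whole reads (within 0.01).

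Transcripts found in GENCODE M39 (115556 of 116747) were summed to genes and rounded to whole numbers. The quasi-likelihood test of edgeR 4.0.16, with TMM over all genes, was run on genes reaching 5 normalized counts in each of the 6 libraries. For the time course, limma 3.58.1 (eBayes, with a trend) compared log2 values of CPM plus a pseudocount of 1 in all 8 libraries, for genes above 1 CPM in any of them. P-values were adjusted over all genes tested (Benjamini-Hochberg). TPM served levels per length and exon shares, and no test. Both procedures were tested on simulated data.

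The members and gene lists were chosen with earlier results of these data known. Named were all members. Up to 6 other pathway genes with the largest calls at a mean of at least 5 CPM were named in each of 2 comparisons. Fgfr4, Fgfrl1, Kl, Klb, Fgf23, Etv4 and Etv1 could be named whatever their values. Outside these rules, Ncam1, Cdh2, Flrt1, Dusp4, Ksr1, Fgf11 and Fgf18 were named too. The 3 genes most like Fgfr3 were also named, as the member with the largest change from day 1 to day 14 on the log2(CPM + 1) scale. By edgeR on the recovered reads, Spry4 changed more in that comparison (Log2FC 2.74 against 2.48 for Fgfr3). Alternatives were DESeq2 1.42.0, other size factors, pseudocounts and filters, a length offset, edgeR on recovered reads, a replicate block and each library left out. R 4.3.3, Python 3.11.15 and pandas 2.3.3 were used. Spry3 was not analysed here, and sequences of exon IIIc are not reported here.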

Additional observations from a re-analysis of the deposited data

How the results depend on the processing

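Counts of members called that changed with an alternative are as follows. From day 1 to day 7, 2 members were called lower, not 1, by edgeR on the recovered reads, with a pseudocount of 0.1 (Dusp6 at -1.10 and -1.12) and without a minimum fold, which also gave 3 higher, not 2. From day 7 to day 10, 1 member was called higher with a mean of at least 5 CPM, which drops Spry4, and 9 without a minimum fold (8 without limma's trend, where Fgfr2 missed the threshold). The same filter left 3 members called higher, not 4, from day 1 to day 14. Without a minimum fold, 1 was called higher and 4 lower from day 10 to day 14, 2 lower from day 1 to day 14, and 4 higher and 1 lower in the sort. With library size alone the sort gave 0 members higher and 1 lower, and Spry2 turned to -0.18. The share of higher calls over all genes went from 52.6% to 24.7%. Leaving out 1 library at a time gave 0 to 1 members lower in the sort. Fgfr3 between days 10 and 14 ranged from -0.030 to 0.060 over these refits, being -0.030 without day 10 replicate 1 and -0.01 without day 14 replicate 2. In the sort they gave -0.21 to -0.08 for Spry1 and 0.01 to 0.23 for Spry2. Over all genes, edgeR on the recovered reads called 876 higher from day 1 to day 7 (571 by limma), 334 higher and 216 lower from day 7 to day 10 (182 and 100 by limma), and 504 and 227 from day 10 to day 14 (266 and 111). A pseudocount of 0.1 gave 377 and 175, and 425 and 246. TMM scaling of the CPM values gave 145 higher and 127 lower from day 7 to day 10. Same-numbered libraries did not deviate together (r from -0.32 to 0.22 in the sort and -0.03 to 0.06 in the time course), so numbers were not taken to pair samples, although sorted fractions can share a culture. Between different numbers in the sort, r went from -0.41 to 0.47. It was 0.47 for CD61 low replicate 3 with CD61 high replicate 1, and 0.26 for CD61 low replicate 1 with CD61 high replicate 2. Which libraries shared a culture was not settled by these values. With the replicate block, 3 members were called higher and 0 lower in the sort and 4 and 0 from day 1 to day 14, and no member's call changed. Depth limits Fgf2 most, at 4 to 20 reads per library in the time course.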
